A study of Mus musculus with 2 samples.

Results

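Apolipoproteins are the protein parts of the particles that carry fat and cholesterol in plasma, and the liver makes most of them. The genes described here are Apoa1, Apoa2, Apoa4, Apoa5, Apob, Apoc1, Apoc2, Apoc3, Apoe and Apom, found by the gene name that the array files give to each probe. They account for 10 of 30165 genes and for 13 of 39429 gene probes on the array. All 13 probes were well above background on both arrays.

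RNA came from 1 wild type and 1 Drp1 knockout liver sample, and each was read on 1 one-colour Agilent mouse genome array. Whether a sample was a single animal or a pool is not given in the labels. Drp1, encoded by Dnm1l, is the dynamin-related GTPase that divides mitochondria. The animals were C57BL/6J males, fed a high-fat diet based on lard (24% fat, 45% of energy) for 24 weeks from the age of 4 weeks. The study's title places the disruption in the liver, but the labels give neither the Cre line nor the deleted part of the gene. The log2 level of Dnm1l itself was 1.02 in the wild type and 0.81 in the sample labelled knockout, a difference of -0.21 that turns in sign without scaling. Its 1 probe lies near the 3′ end of the transcript. Since the deleted part of the gene is not given, this value neither bears out nor contradicts the label. The study's text describes both fasted and refed mice, and the labels do not say which of these the 2 livers were. The part of feeding state in the values was not tested. With 1 array per group there is no replicate check, so no difference was tested and no p-value is given.

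In a lipoprotein, Apob forms the scaffold of the triglyceride-rich particle that the liver secretes, and Apoa1 and Apoa2 form high-density lipoprotein (HDL). Apoc2 activates lipoprotein lipase, the enzyme that clears triglyceride from plasma, while Apoc1 and Apoc3 slow clearance and Apoa5 favours it. Apoe is the ligand by which remnant particles are taken up, Apom carries sphingosine-1-phosphate on HDL, and Apoa4 is a lipid-binding protein of gut and liver. In the mouse, Apoa1, Apoc3, Apoa4 and Apoa5 follow each other on chromosome 9. Their probes spanned 42.1 kb, from 46037921 to 46080002 (mm9). Apoc2, Apoc4, Apoc1 and Apoe form a second cluster on chromosome 7, with probes from 20257027 to 20281791 (mm9). Apoa2 lies on chromosome 1, Apob on chromosome 12 and Apom on chromosome 17.

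Each value below is the brightness of a probe of 60 bases. The probes on which the comparisons turn are the one for Apoa4, which stood apart, those for Apoa1 and Apoe, which were printed in 10 copies, 1 of the 2 for Apoa2, both for Apob and the one for Apom. They are given 5′ to 3′ as the array files list them.
Apoa4: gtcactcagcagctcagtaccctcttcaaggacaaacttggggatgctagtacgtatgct
Apoa1: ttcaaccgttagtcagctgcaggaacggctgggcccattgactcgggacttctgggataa
Apoe: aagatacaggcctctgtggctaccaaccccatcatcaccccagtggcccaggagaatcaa
Apoa2: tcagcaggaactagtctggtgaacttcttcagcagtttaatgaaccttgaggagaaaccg
Apob, at transcript position 13457: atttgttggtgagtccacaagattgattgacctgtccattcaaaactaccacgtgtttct
Apob, at transcript position 4473: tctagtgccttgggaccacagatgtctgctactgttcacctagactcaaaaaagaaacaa
Apom: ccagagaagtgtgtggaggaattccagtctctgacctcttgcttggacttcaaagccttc
The Apoa4 probe maps to 46049661 to 46050404 on chromosome 9 (mm9), a stretch of 744 bases, so its 60 bases are split by an intron and it reads spliced mRNA. The other probes shown lie in unbroken stretches of 60 bases. They map to 46037921 to 46037980 on chromosome 9 (Apoa1), 20281732 to 20281791 on chromosome 7 (Apoe), 173156320 to 173156379 on chromosome 1 (Apoa2) and 35267047 to 35267106 on chromosome 17 (Apom), all in mm9. The Apob probes map to 8023194 to 8023253 and to 8012697 to 8012756 on chromosome 12 (mm9).

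Scaling decides the sign of most differences in this family, so the signals are given first as the scanner software produced them. The 75th percentile of all gene spots was 461 fluorescence units in the wild type and 722 in the knockout, a log2 gap of 0.65, and 50.5% and 57.1% of probes were well above background. A probe with equal signals on both arrays therefore stands at -0.65 once each array is divided by its own 75th percentile, which is the scale used below unless another is named. Differences are log2, knockout minus wild type. The spot SDs of the arrays, pooled over measured probes with repeated spots and combined as if independent, gave 0.14 for such a difference. This covers measuring error on the slide and leaves out the spread between mice. Paired by place on the arrays, spot differences varied less, with SDs of 0.017 for Apoa1 and 0.041 for Apoe.

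Apoa4 was the one apolipoprotein at least 1.5-fold higher in the knockout under every way of processing. Its signal was 8134 units in the wild type and 38796 units in the knockout, a ratio of 4.77. After scaling it was 3.04-fold higher (difference 1.61), at 17.7 times the 75th percentile against 53.8 times. Only 129 of the 15385 genes measured on both arrays had a greater difference. Among the 1539 measured genes with the highest mean level, the genes above it were Igfbp1 (12.8-fold), a secreted binder of insulin-like growth factors, Tubb2a (3.84-fold), a beta-tubulin, and Ehhadh (3.31-fold), an enzyme of peroxisomal fat oxidation. These were named after their values were seen. Since the 1539 genes were picked on the mean of both arrays, a gene can enter through its knockout level. The Apoa4 probe stood at percentile 88.0 of measured probes in the wild type and 95.9 in the knockout, so its place among them is no separate support. The Apoa4 probe moved from rank 2345 to rank 801 among the 39429 probes of its array. Its difference lay between 1.61 and 2.43 over all 11 ways of processing that were run.

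The neighbours of Apoa4 on chromosome 9 stood far below it. Apoa5, which favours clearance of triglyceride, gave 6391 units in the wild type and 10310 in the knockout, a scaled difference of 0.042. Apoa1, the main protein of HDL, was read by 10 spots, which lay between 79101 and 91904 units in the wild type and between 108671 and 127509 in the knockout. The Apoa1 spots of the knockout were thus all brighter before scaling, with no overlap and with a mean spot difference of 0.47 ± 0.017 (SD, n = 10 spots). Unscaled, the typical measured gene stood at 0.54 (median), slightly above Apoa1, so the brighter spots do not set Apoa1 apart from other genes. Whether other probes with repeated spots also lacked overlap was not tested. The spot at 91904 units was flagged as an outlier and is left out of the gene's value. Without it the wild type spots reached 87074 units and the mean spot difference was 0.47 ± 0.018 (SD, n = 9 spots). Scaled, Apoa1 stood at -0.16, or 1.12-fold lower, so its sign depends on the scale. Apoc3, which slows clearance, had 2 probes. The probe at transcript position 464 gave 219739 and 222425 units, and the probe of a second transcript gave 395 and 484 units, for scaled differences of -0.63 and -0.36. The gap between Apoa4 and a neighbour does not depend on a common scaling factor. Apoa4 exceeded Apoa5 by 1.56, Apoa1 by 1.77 and Apoc3 by 2.10 on the log2 scale. Over all 11 ways of processing these gaps ran from 1.56 to 1.64, from 1.65 to 1.78 and from 2.10 to 2.24. Apoa4, Apoa5 and Apoa1 have 1 probe each, which neither a filter on dim probes nor the choice of probe alters. Most of the 11 ways could therefore not move the gaps among them.

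**Figure D1:**
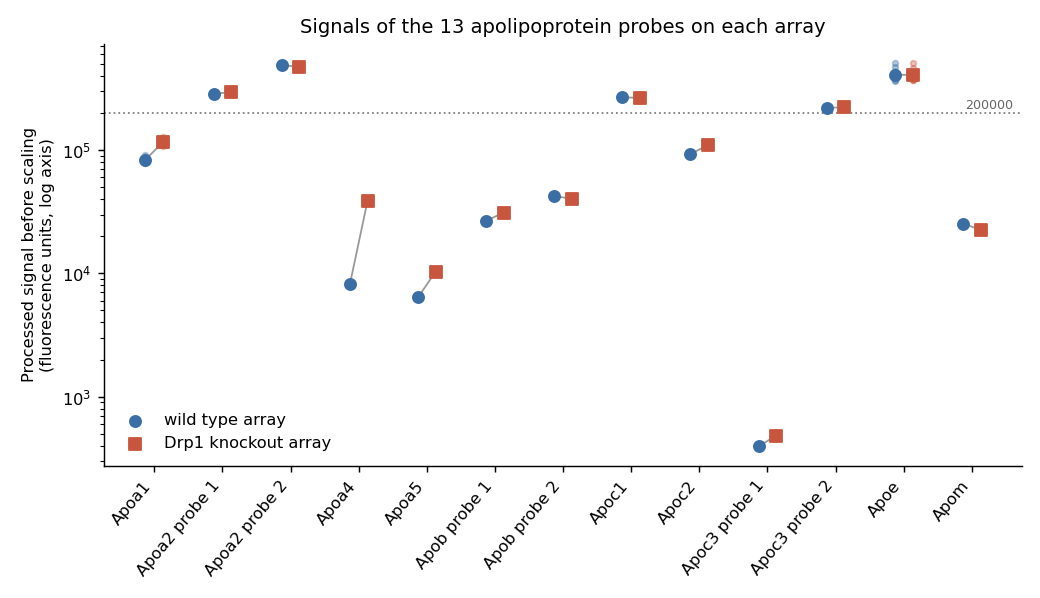
Signal before scaling (fluorescence units, log axis) of the 13 probes of 10 apolipoproteins on the wild type array (blue circles) and the knockout array (red squares), with the 10 spots of Apoa1 and Apoe as faint points behind their mean and grey lines joining the arrays. Apoa4 goes from 8134 to 38796 units, while the 5 probes above 200000 units (dotted line) lie almost level.

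The HDL proteins Apoa2 and Apom were lower than most genes after scaling, though both stood above 0 with spike-in scaling. Apoa2 gave 286971 and 294014 units with the printed probe and 489856 and 471568 units with its other probe, wild type first. Its scaled differences were -0.61 and -0.70, which is 1.58-fold lower as a mean. Apom gave 25267 units in the wild type and 22599 in the knockout. It was the only member with a lower knockout signal by more than the 0.14 of spot error before any scaling (-0.16), and after it stood at -0.81, or 1.75-fold lower. Among 15385 genes, 6.61% had a lower difference than Apom.

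Apob, the scaffold of the particles that carry triglyceride out of the liver, gave 26668 and 31121 units with the probe at position 13457, wild type first. With the probe at position 4473 it gave 42245 and 40336 units. The scaled differences of -0.43 and -0.71 have the same sign, but before scaling the probes differed in sign, at 0.22 and -0.067. Their mean of -0.57 is 1.48-fold lower.

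In the chromosome 7 cluster, Apoe and Apoc1 gave nearly level signals and Apoc2 a higher one in the knockout before scaling. Apoe, the ligand for remnant uptake, was read by 10 spots between 362422 and 506721 units in the wild type and between 369938 and 506431 units in the knockout. These ranges overlapped almost fully, and 5 of 10 spots were brighter in the knockout, with a mean spot difference of -0.0064 ± 0.041 (SD, n = 10 spots). Scaled, Apoe stood at -0.65. Apoc1, an inhibitor of clearance, gave 267407 units in the wild type and 265480 in the knockout, a scaled difference of -0.66. Apoc2, the activator of lipoprotein lipase, gave 92621 units and 110198 units, a scaled difference of -0.40. Apoc4, a minor apolipoprotein that lies within this cluster and was not among the 10 genes, gave 84976 and 94421 units, a scaled difference of -0.50.

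**Figure D2:**
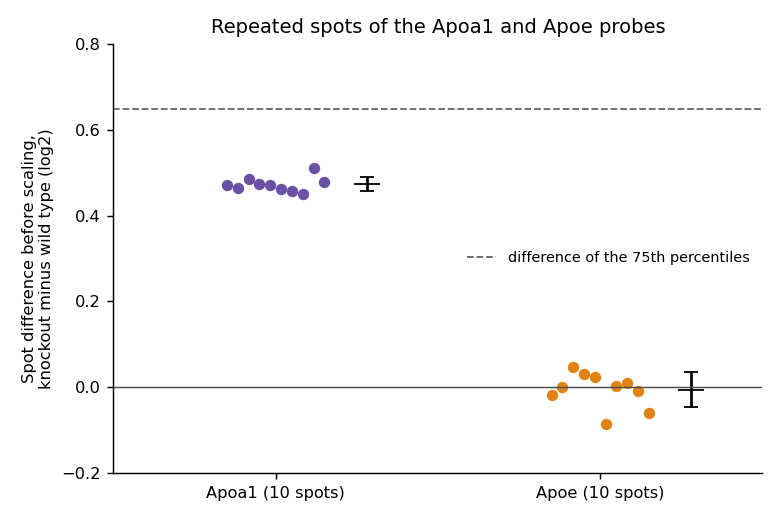
Difference before scaling (log2, knockout minus wild type) of each of the 10 spots of Apoa1 and of Apoe, with the mean and SD over all spots, the flagged one included, beside them and the difference of the arrays' 75th percentiles (0.65) as a dashed line. All Apoa1 spots lie between 0.45 and 0.51, the Apoe spots lie between -0.086 and 0.046, and both groups lie under the dashed line.

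Of the 10 genes, 1 was at least 1.5-fold higher after scaling (Apoa4), 4 were at least 1.5-fold lower (Apom, Apoa2, Apoc1 and Apoe) and 5 lay between. Across all measured genes, 8.42% reached 1.5-fold in the higher direction and 13.4% in the lower one. Among the 1539 measured genes with the highest mean level, to which 8 of the 10 belong, these shares were 1.49% and 17.4%. The median difference of the 10 genes was -0.53, beside -0.11 over all measured genes and -0.30 over those 1539. The 4 lower calls rest on the scale: after loess normalization, which takes out a trend of the difference with brightness, 0 of the 10 were at least 1.5-fold lower, beside 9.5% of all genes, and the median was -0.16. Quantile normalization and the deposited table, itself close to quantile-normalized, also left 0 of 10 (12% and 11.4% of all genes). Centring on the median left 1 (9.55%) and normexp background correction 2 (9.52%). Taking the brightest probe per gene gave 6 lower, beside 13.6% of all genes. Scaled to the E1A spike-in RNA, which was itself 0.18 lower on the knockout array, all 10 genes stood above 0 with a median of 0.30, as did the median of all genes at 0.72. On that scale 3 of 10 were at least 1.5-fold higher beside 62.6% of all genes and 0 lower beside 1.23%. Unscaled, 2 were higher (45.5%) and 0 lower (1.86%).

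Brightness moved with these values. In all, 42 probes gave at least 200000 units on both arrays, among them both Apoa2 probes, the brighter Apoc3 probe and those of Apoc1 and Apoe. Before scaling, the differences of these 42 probes lay between -0.19 and 0.19, and their scaled median was -0.62. In the next group, from 50000 to 200000 units, 383 probes ranged from -0.87 to 1.43 before scaling, with a median of 0.27, and this group held Apoa1 (0.49) and Apoc2 (0.25). No spot was flagged as saturated, and the brightest Apoe spot reached 71.2% of the scanner's saturation value in the wild type and 72.3% in the knockout. Whether probes this bright could have shown a larger difference was not tested.

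**Figure D3:**
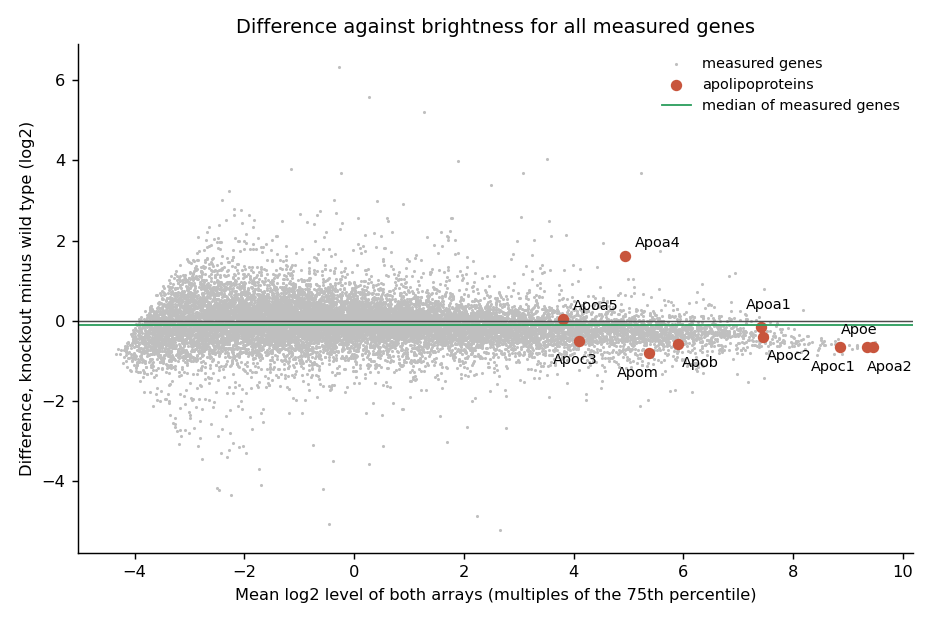
Difference (log2, knockout minus wild type, 75th percentile scaling) of 15385 measured genes against their mean log2 level on both arrays, with the 10 apolipoproteins in red and the median of all genes, -0.11, as a green line. The spread narrows at the bright end, where Apoc1, Apoa2 and Apoe lie close together near -0.65, and Apoa4 stands above the other 9 at 1.61.

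Relative to the median of all measured genes, which removes any common factor between the arrays, 2 members stood above in every one of the 11 ways of processing. The main scale, centring, spike-in scaling and unscaled signals then give the same values by construction, so the 11 are not separate checks. Apoa4 stood 1.72 above the median at the least and 1.92 at the most, and Apoa5 stood 0.15 to 0.35 above it. The lowest value for Apoa5 is close to the spot error of 0.14. Below the median under all 11 were Apom (-0.70 to -0.47), Apob (-0.60 to -0.21) and Apoc3 (-0.51 to -0.18). Most of these values for Apoc3 average its bright probe, at 219739 units in the wild type, with the second transcript's probe at 395 units. After loess normalization these probes stood at -0.17 and -0.35, so the Apoc3 range mixes very unlike signals. The other 5 members crossed the median. Apoa1 ran from -0.050 to 0.27, Apoc2 from -0.29 to 0.025, Apoe from -0.54 to 0.021, Apoc1 from -0.55 to 0.016 and Apoa2 from -0.58 to 0.042.

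**Figure D4:**
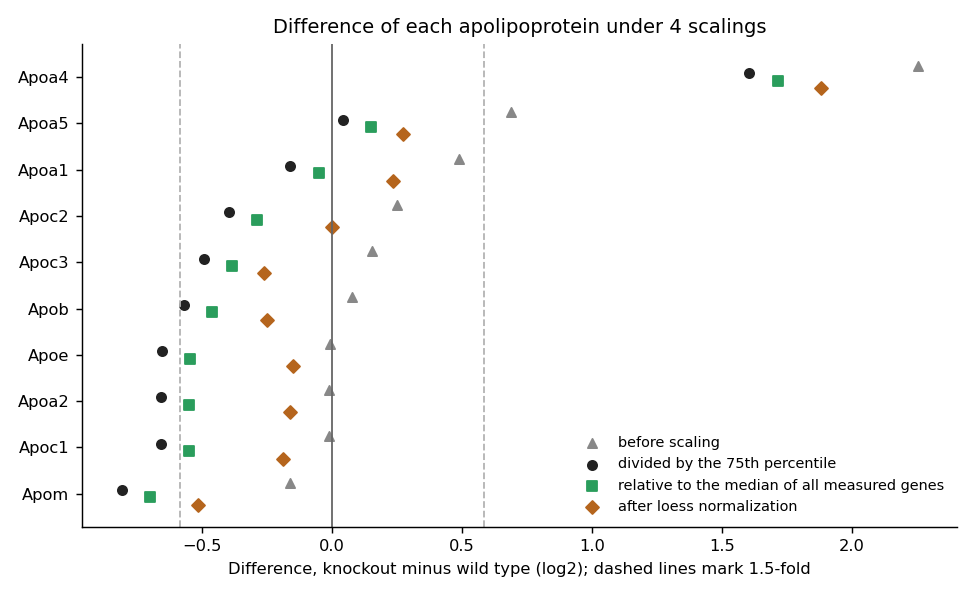
Difference of each apolipoprotein (log2, knockout minus wild type) before scaling, after division by the 75th percentile, relative to the median of all measured genes and after loess normalization, ordered by the second of these, with 1.5-fold marked by dashed lines. Apoa4 lies beyond the upper line with all 4 symbols, while Apoa2, Apoc1 and Apoe pass the lower line only with the 75th percentile, and Apom also relative to the median.

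Apoa4 and its neighbours can be set beside the DNA in front of their starts. The 250 bases before the RefSeq start are shown for Apoa4, Apoa5 and Apoa1 (GRCm38.p6, plus strand), since these genes share a cluster and have an entry in the promoter table. Capitals mark matches to CAAAGTNCA, a part of the binding site of the liver factor Hnf4a, to CACGTG, the E-box bound by Usf factors, and to TATAAA.
Apoa4, chr9:46240594-46240843: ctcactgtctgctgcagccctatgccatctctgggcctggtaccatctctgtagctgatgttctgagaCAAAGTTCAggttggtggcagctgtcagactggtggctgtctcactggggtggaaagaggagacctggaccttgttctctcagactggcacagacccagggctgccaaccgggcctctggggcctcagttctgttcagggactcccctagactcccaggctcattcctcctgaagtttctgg
Apoa5, chr9:46268358-46268607: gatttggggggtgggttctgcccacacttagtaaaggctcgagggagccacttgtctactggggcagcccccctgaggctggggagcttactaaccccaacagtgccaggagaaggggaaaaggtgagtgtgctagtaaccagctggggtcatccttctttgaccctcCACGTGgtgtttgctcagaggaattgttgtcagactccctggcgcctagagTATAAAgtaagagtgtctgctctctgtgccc
Apoa1, chr9:46228380-46228629: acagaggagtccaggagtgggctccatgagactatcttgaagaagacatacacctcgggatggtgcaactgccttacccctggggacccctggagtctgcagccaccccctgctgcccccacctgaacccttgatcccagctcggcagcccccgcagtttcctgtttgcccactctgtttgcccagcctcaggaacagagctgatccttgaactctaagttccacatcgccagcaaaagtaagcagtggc
Apoa4 held CAAAGTNCA, Apoa5 held CACGTG and TATAAA, and Apoa1 held none of these. On both strands, CAAAGTNCA was present in 1.19% of 32851 RefSeq promoter windows of this length, CACGTG in 6.02% and TATAAA in 12.4%. The table held 12 windows for 8 of the 10 genes, without Apoc1 and Apoc3. Among these 8 genes, 1 held CAAAGTNCA, 1 held CACGTG and 4 held TATAAA, while TGACGT, the core of the cAMP response element (6.47% of all windows), was in none. A match describes these letters only.

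Other proteins carried on lipoproteins included a group with far lower values, the serum amyloid A proteins, which ride on HDL. Of 21 listed genes 17 were measured, with 0 at least 1.5-fold higher, 4 at least that much lower and a median of -0.47. After loess normalization 2 were higher and 3 lower. For this list and those below, the shares over all measured genes were 8.42% higher and 13.4% lower. Saa1 was 4.33-fold lower, at 76.6 times the 75th percentile in the wild type and 17.7 times in the knockout. Saa2 went from 81.6 to 20.7 times and Saa4 from 25.2 to 8.58 times, and before scaling the 3 genes stood at -1.47, -1.33 and -0.91. Saa1 and Saa2 have closely similar sequences, so their values are uncertain as single genes. Apon stood at -0.80, or 0.031 with spike-in scaling. Apol9a (0.51) and Apol9b (0.33), closely similar members of another apolipoprotein family, had the highest values. Apol6, Apol8, Apol10b and Apol11b were not well above background on either array.

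Genes that build and export lipoproteins included 1 past 1.5-fold, which was lower, among 13 measured, with a median of -0.25. Mttp, which loads lipid onto Apob, went from 6.40 to 5.38 times the 75th percentile (-0.25). Tm6sf2, which acts in the lipidation of secreted particles, was the lower one, from 4.93 to 2.98 times (-0.72, or 0.10 with spike-in scaling). Apobec1, the enzyme that edits Apob mRNA, had the highest difference of the list, 0.30, from 2.35 to 2.89 times. Mia2, an exit factor of the endoplasmic reticulum, stood at -0.51 from probes at -0.79 and -0.24, the GTPase Sar1b at -0.49 and the cargo receptor Surf4 at -0.42.

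Among receptors and their regulators, 10 of 13 were measured, with 1 higher, 2 lower and a median of -0.084, close to that of all genes. Lrp1, a remnant receptor, went from 9.77 to 6.26 times the 75th percentile (-0.64), and Vldlr stood at -0.60. Cd36, a scavenger receptor that takes up fatty acids, was the higher one, from 2.87 to 4.93 times (0.78). Scarb1, the HDL receptor, stood at -0.0095 from probes at -0.26 and 0.24, the ubiquitin ligase Mylip at 0.40 and Apobr at 0.53. Before scaling Lrp1 was at 0.0046, and with spike-in scaling both Lrp1 and Vldlr stood above 0. With no filter on dim probes, Lrp1 stood at -0.21, Vldlr at -0.34 and Mylip at 0.67. Apobr was dim, at 0.212 times the 75th percentile in the wild type and 0.307 times in the knockout. It stood at 0.27 with normexp background correction and did not pass the stricter filter on dim probes.

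HDL remodelling genes had a median of -0.45, with 8 of 9 measured, 0 higher and 1 lower. The lower one was Pcolce2 (-0.69, or 0.14 with spike-in scaling), an enhancer of the protease that matures Apoa1. That protease, Bmp1, stood at -0.58, from probes at -0.77 to -0.25. Lcat, which esterifies cholesterol on HDL, stood at -0.47, Abca1, which loads Apoa1 with lipid, at -0.44, hepatic lipase (Lipc) at -0.51 and the transporter Abcg1 at 0.56. For lipolysis of plasma triglyceride, 10 of 10 genes were measured, with 1 higher, 0 lower and a median of -0.32. The higher one was Lpl, lipoprotein lipase itself, from 0.490 to 0.967 times the 75th percentile, with probes at 0.93 and 1.04. Gpihbp1, which anchors it in capillaries, stood at -0.55, its maturation factor Lmf1 at -0.52, the protease Furin at -0.45 and Angptl8 at -0.34.

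**Figure D5:**
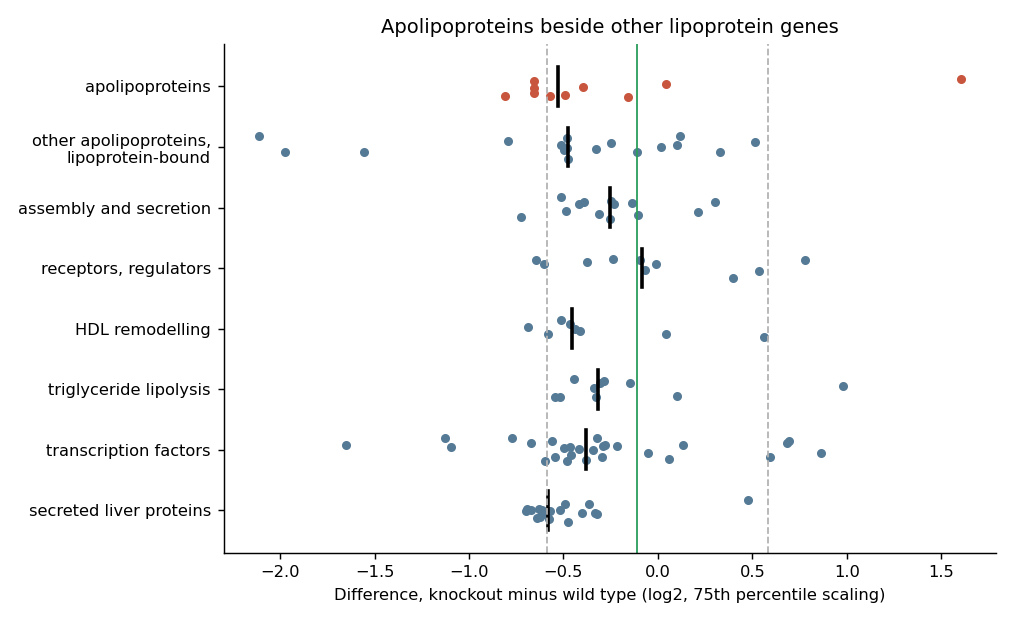
Difference (log2, knockout minus wild type, 75th percentile scaling) of each measured gene in 8 lists, with the list's median as a black bar, the median of all measured genes (-0.11) as a green line and 1.5-fold as dashed lines. Apoa4, at 1.61, is the rightmost point of all 8 lists, and Saa1 and Saa2, at -2.11 and -1.98, are the leftmost.

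Of 27 transcription factors that act on apolipoprotein genes, all were measured, with 4 at least 1.5-fold higher, 6 at least 1.5-fold lower and a median of -0.38. Across all measured genes 8.42% were higher and 13.4% lower. After loess normalization 4 of the 27 were higher and 4 lower. Srebf1, the lipogenic factor, was 3.14-fold lower, Ppara, a sensor of fatty acids, 2.18-fold and Foxa1 2.14-fold. Srebf1 was dim, at 0.393 times the 75th percentile in the wild type and 0.125 times in the knockout. It stood at -1.21 with normexp background correction and did not pass the stricter filter on dim probes. Foxa2 (-0.77), Foxo1 (-0.67) and Cebpa (-0.60) were the other lower ones, and these stood above 0 with spike-in scaling. Before scaling, Ppara was at -0.48 and Foxa1 at -0.45. Srebf2 (0.86, from probes at 0.41 and 1.32), Foxa3 (0.69), Nr0b2 (0.69) and Rora (0.59, or -0.58 with no filter on dim probes) were higher. Srebf2 was dim, at 0.089 and 0.162 times the 75th percentile, stood at 0.16 with normexp background correction and did not pass the stricter filter on dim probes. Hnf4a, which drives many apolipoprotein genes in liver, stood at -0.32. Creb3l3, a liver factor that acts on Apoa4 among others, went from 103 to 73.8 times the 75th percentile, a difference of -0.48.

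Secreted proteins of hepatocytes other than apolipoproteins had 0 higher and 10 lower of 20 measured (21 listed), where 13.4% of all genes were lower. After loess normalization 0 were lower and 1 was higher. Their median was -0.58, which was -0.13 after loess normalization and 0.065 before any scaling. Albumin (Alb) went from 865 to 604 times the 75th percentile (-0.52), transferrin (Trf) stood at -0.64, the fibrinogen chains Fga and Fgg at -0.67 and -0.70, Ahsg at -0.69 and transthyretin (Ttr) at -0.63. With spike-in scaling Alb, Trf, Fga, Fgg, Ahsg and Ttr all stood above 0.

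The samples carried the defining markers of liver, with 10 of 10 hepatocyte markers measured on both arrays. Markers of other cells that make apolipoproteins were set beside these values. Macrophages make Apoe and Lpl, and of 14 macrophage markers 5 were at least 1.5-fold higher and 0 lower, with a summed level of 91.9 times the 75th percentile in the wild type and 114 in the knockout. The 5 were Trem2 (2.43), Gpnmb (2.43), Marco (1.65), Cd14 (1.60) and Cd68 (0.63). The other 9 lay between the 1.5-fold limits, from Timd4 at -0.42 and Clec4f at -0.16 up to Adgre1 at 0.30. For all cell type markers on the main scale, the shares over all measured genes were 8.42% higher and 13.4% lower. Stellate cell markers were higher in 7 of 10 and lower in 1, with a summed level of 48.6 against 72.2. The part of these cells in the values of Apoe and Lpl was not tested, and in bulk tissue fewer cells of a type cannot be told apart from less RNA per cell. The gut also makes Apoa4 and Apob. Of 6 gut markers, Vil1, Cdh17, Alpi and Sis were not well above background on either array. The other gut markers, Fabp2 and Lgals4, stood at -0.53 and 0.084, with a summed level of 103 in the wild type and 73.6 in the knockout. Of 10 skeletal muscle markers, 7 were above background in the wild type alone, and Pvalb, measured on both, was at -1.35. Of 7 fat cell markers 3 were measured on both arrays, with the adipocyte protease Cfd at -5.07, Lipe at -0.025 and Fabp4 at 0.015, while Adipoq, Plin1, Lep and Retn were not well above background. Of 8 bile duct markers 5 were measured on both arrays and 4 were higher, the summed level going from 0.610 to 1.56. Endothelial markers were higher in 2 of 8, and 3 of the 5 listed red blood cell genes were measured, with a median of -0.79.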

How the data were processed

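Total RNA from liver was labelled with Cy3 and hybridised to Agilent mouse arrays, per the labels' protocols. The intensity values of each spot were made by the authors with Agilent Feature Extraction, per the file headers: signals were background-subtracted and detrended within the array, with no scaling between arrays. Its version is 9.5.1.1 per the submitters' processing notes and 10.7.1.1 (of a module) per the file headers. Both arrays lay on 1 slide. The authors' deposited value table has linear intensities with a median of 45.9 in each column and served as an alternative. Its 2 columns hold equal values at all but 189 of 39429 ranks. It is thus close to quantile normalization and no separate check of that setting.

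Control spots and spots flagged as outliers were left out, among them 1 Apoa1 spot on the wild type array. The log2 signals were set relative to each array's 75th percentile, and copies of a probe were averaged. A probe counted as measured if 50% or more of its usable spots were well above background, and a gene is the mean of its probes measured on both arrays. Other genes than the 10 were named by RefSeq accession or symbol (GRCm38.p6, names only). Probe positions are those of the files (mm9), and exon and UTR annotation was not used here. Promoter windows are RefSeq's (GRCm38.p6). The deposited flags and signals are the only measures used.

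The 10 genes and all lists were chosen with earlier results of these data known. Named are all 10 genes, in each other list up to 5 measured genes with the greatest absolute difference, and Mttp, Apobec1, Lcat, Lpl, Abca1, Scarb1, Creb3l3, Hnf4a, Apoc4 and Alb. Some genes of the receptor list are not reported here and were left out of its counts. Further list members, the marker genes and Igfbp1, Tubb2a and Ehhadh were named after their values were seen. The alternatives were quantile, median and loess (span 0.3) normalization, normexp background correction (limma 3.58.1, offset 50), no filter and a stricter filter on dim probes (25th percentile), the brightest probe per gene, the deposited table, E1A spike-in scaling and, added after seeing the data, unscaled signals. The main, median and loess settings were run on simulated arrays with every probe above background and no trend of the difference with brightness. They could not test how such a trend affects bright probes.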

Additional observations from a re-analysis of the deposited data

How the results depend on the processing

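With 1 array per group, no setting carries a test, and a value counted as moved when it shifted by more than the spot error of 0.14. The count of 1 member at least 1.5-fold higher held under the 8 alternatives that keep the 75th percentile or normalize the arrays to each other, and became 3 with spike-in scaling and 2 unscaled. The count of 4 members at least 1.5-fold lower became 0 under quantile and loess normalization, with the deposited table, with spike-in scaling and unscaled, 1 after centring on the median and 2 with normexp, and 6 with the brightest probe per gene. The median difference of -0.53 became -0.0088 under quantile normalization, -0.16 under loess, 0 with the deposited table, 0.30 with spike-in scaling and 0.12 unscaled. Of all genes past 1.5-fold, 38.6% were higher on the main scale, 53.9% after centring, 50.8% under loess, 21.9% with no filter, 98.1% with spike-in scaling and 96.1% unscaled.

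Of the 68 genes followed across settings, the sign turned for 40 with spike-in scaling, which moved the median of all genes by 0.83, and for 28 unscaled. It turned for 5 under quantile normalization, 5 with the deposited table, 4 under loess and 1 each after centring, with normexp and with no filter. Members between the 1.5-fold limits on the main scale that turned were Apoa1 (0.67 with spike-in scaling, 0.49 unscaled, 0.23 quantile, 0.24 loess, 0.21 deposited table), Apob (0.26 and 0.078, spike-in first, then unscaled), Apoc2 (0.43 and 0.25, and 0.0013 under loess) and Apoc3 (0.33 and 0.16). Among values past 1.5-fold on the main scale, and the medians of lists past it, the sign turned with spike-in scaling for Apoa2 (0.17), Apoc1 (0.17), Apoe (0.17), Apom (0.018), Apon (0.031), Tm6sf2 (0.10), Lrp1 (0.18), Vldlr (0.22), Pcolce2 (0.14), Foxa2 (0.054), Foxo1 (0.16), Cebpa (0.23), Fgg (0.13), Ahsg (0.13), Fga (0.16), Trf (0.19), Ttr (0.20) and the median of the red blood cell genes (0.036). Unscaled, it turned among these for Lrp1 (0.0046), Vldlr (0.044), Trf (0.010), Ttr (0.019) and Cebpa (0.049). It also turned among these for Apoa2 under quantile normalization (0.0095), for Apoa2 (0.021) and Trf (0.030) with the deposited table, and for Rora with no filter (-0.58), where a dim probe enters its mean. Spike-in scaling and leaving out the scale shift every value by a constant, and the cause of the other turns was not tested. Apoa4 kept its direction and stayed past 1.5-fold under all 10 alternatives.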

Other observations

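Some apolipoprotein probes kept their place among the 39429 probes exactly. The Apoe probe ranked 3 on both arrays, the brighter Apoa2 probe ranked 1 on both and the Apoc2 probe ranked 170 on both, although Apoc2 stood at -0.40 on the main scale and at 0.25 before scaling. The probes of Apoc1 (24 and 25, wild type first), Apob at position 13457 (952 and 1042) and Apom (1010 and 1383) moved down, and those of Apoa1 (202 and 161) and Apoa5 (2696 and 2424) moved up.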
